A study of Bos taurus with 6 samples.

Results

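RRAD and 6 genes that move calcium in the muscle fibre were followed across 6 steers, at 15 probe sets of the 24016 on the array. The members were RRAD together with the calcium channel, release channel, pumps, pump inhibitors and calcium buffers of the sarcoplasmic reticulum, 10 genes in all. Every probe set whose annotation carried exactly 1 of these symbols was taken. CACNA1S, CACNB1, ATP2A1, ATP2A2, SLN and PLN were found in this way beside RRAD. RYR1, CASQ1 and CASQ2 were not named in the annotation table and were not analysed here. RRAD was put first because its signal was already known to differ between the breeds in these same arrays, so its difference is described and not tested.

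The animals were 3 Japanese Black steers, a beef breed, and 3 Holstein steers, a dairy breed, and RNA came from the longissimus dorsi, a long back muscle. All 6 had received the same kind of energy-rich feeding, so the arrays compare breeds under that regimen and no other feed was analysed here. Each animal was measured on 1 array, and the number of arrays limits the precision. Animals are named by breed and a number that has no further meaning.

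In a muscle fibre an electrical signal on the cell surface is sensed by a voltage-gated calcium channel in the transverse tubules. That channel opens the release channel of the sarcoplasmic reticulum, calcium floods the fibre and the filaments contract. Pumps of the SERCA family then return the calcium to the store, and the small membrane proteins sarcolipin and phospholamban restrain those pumps. RRAD belongs to the RGK group of small GTPases, which bind the beta subunits of calcium channels and reduce the channel current.

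The arrays carried the signal of skeletal fibres. In a list of skeletal fibre markers 9 of 12 genes were named, none of them was listed at 0, and their summed signal was 107714 to 117220 in Japanese Black and 111482 to 113539 in Holstein. The slow fibre list, with 6 of 7 genes named, summed to 56543 to 63183 and 58553 to 59971 units in the same order. The fast fibre list, with 5 of 8 named, summed to 67784 to 68818 and 67913 to 70639. Heart muscle markers, with 5 of 8 named and none at 0, summed to 261 to 452 and 293 to 571. The median of an array lay between 48.5 and 54.7 units. Probe sets of a gene are called set 1, set 2 and so on in the order of their identifiers, and levels of different probe sets are not compared, because each has its own brightness.

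RRAD was lower in the Japanese Black muscle, at less than the level of any Holstein animal. At its single probe set the signal was 2625, 3421 and 3183 intensity units in Japanese Black 1, 2 and 3. In Holstein 1, 2 and 3 it was 6753, 6998 and 7912. The highest Japanese Black animal therefore lay well below the lowest Holstein animal, and the gap between breeds was wider than the range within either. The breed means were 3076 ± 409 and 7221 ± 611 units (SD, n = 3 each). The Japanese Black mean minus the Holstein mean was -1.23 in units of log2(signal + 16) (SE 0.13, 95% interval -1.53 to -0.93), a 2.35-fold lower level. In a bulk sample, less RNA per cell and fewer cells that make it cannot be told apart.

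The same comparison put 3 of 18012 tested probe sets, or 0.0167%, past an adjusted p of 0.05, 1 lower (0.00555%) and 2 higher (0.0111%) in Japanese Black, and RRAD was the lower one. Nothing is read from that count here because it is how RRAD was chosen. The difference lay between -1.31 and -1.12 when each of the 6 animals was left out in turn. A narrow range is partly built into the choice of RRAD from these same arrays, so nothing is read from it either.

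**Figure D1:**
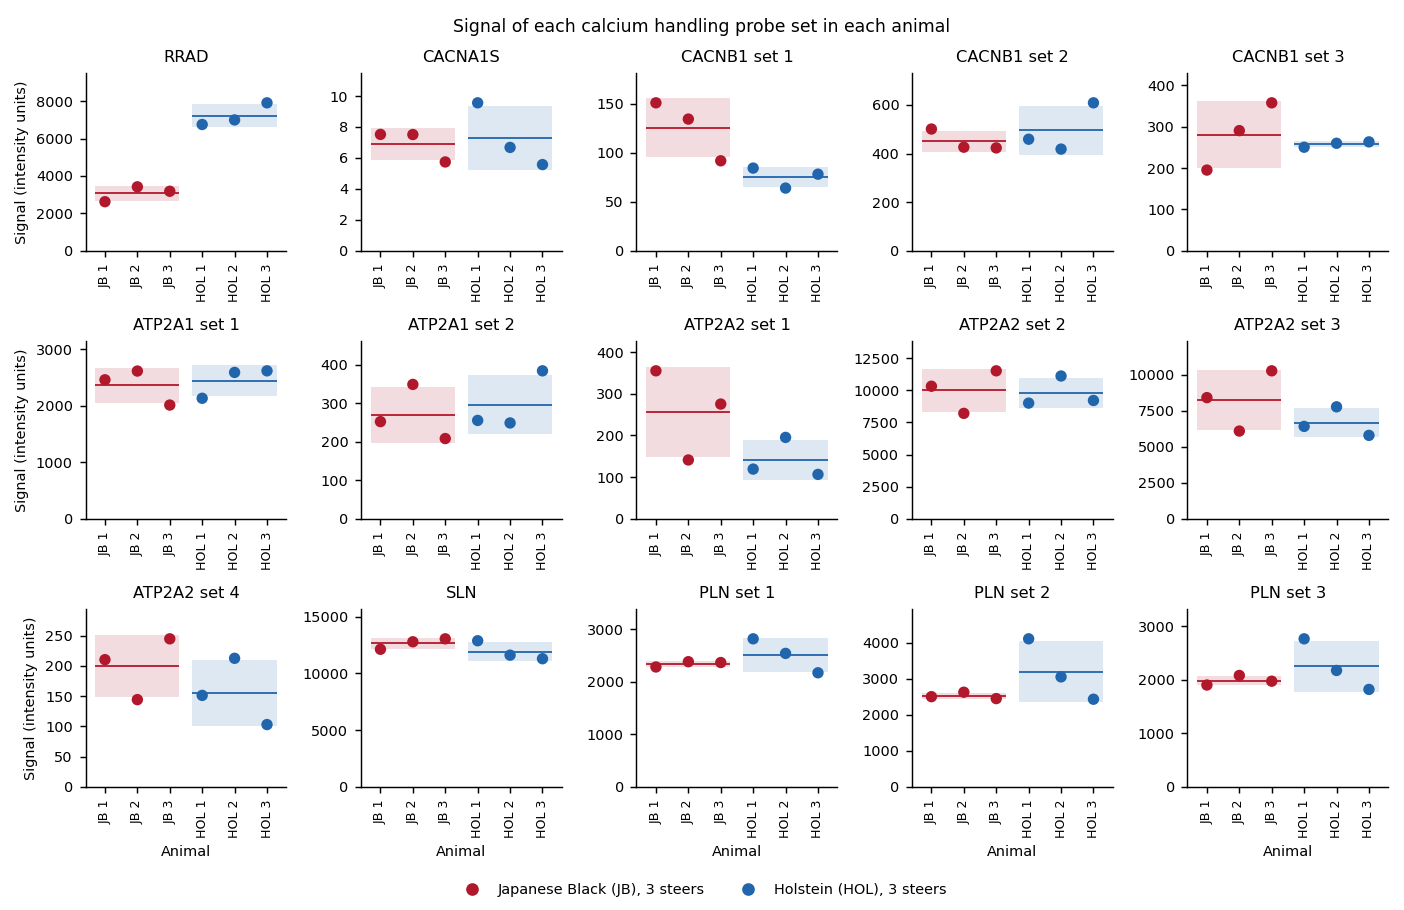
Signal in intensity units (vertical axes, each starting at 0) of the 15 probe sets in each of the 6 animals (horizontal axes); points are animals, lines breed means and bands 1 SD on either side (n = 3 per breed). RRAD separates the breeds, with 2625 to 3421 units in Japanese Black and 6753 to 7912 in Holstein, and so does CACNB1 set 1 in the opposite direction.

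Markers of other cells and of RNA handling were read on the same arrays. Endothelial markers, with 10 of 11 genes named and none at 0, were lower in Japanese Black at 9 of 10 tested genes, with overlapping sums of 2214 to 3299 against 3094 to 3885 units. Immediate early genes, which respond quickly to stimulation, were lower at 12 of 13 tested genes, with overlapping sums of 14510.3 to 18277 against 14397 to 32691 and none at 0. Their mean level on the log2 scale, relative to the mean of all animals, did not overlap. It was -0.32 to -0.16 in Japanese Black and -0.09 to 0.83 in Holstein. None of the genes in either list passed the adjusted threshold. The highest sum of the immediate early genes belonged to Holstein 3 and the lowest to Holstein 1. Holstein 3 is the animal without which the RRAD difference was -1.16. The ratio of the 3′ to the 5′ control probe set of actin, a measure of RNA integrity and labelling, was 1.11 to 1.14 in Japanese Black and 1.003 to 1.07 in Holstein. The same ratio of GAPDH overlapped between the breeds, at 0.858 to 0.928 and 0.796 to 0.884. The part of endothelial cells, of the stimulation that immediate early genes respond to, and of RNA integrity in the RRAD difference was not tested. Smooth muscle and pericyte markers, with 9 of 10 genes named and none at 0, summed to 4199 to 12820.0 in Japanese Black and 4943 to 9334 in Holstein, also with overlap. Fibroblast markers, all 9 named and none at 0, were lower in Japanese Black at 7 genes, with overlapping sums of 7904 to 13779 and 10789 to 12351. Leukocyte sums, with 7 of 9 genes named and none at 0, were 393 to 598 and 428 to 661, and erythrocyte sums, with 6 of 7 named and 1 gene (SLC4A1) listed at 0 on some arrays, were 3707 to 4942 and 3353 to 4069. Most of the erythrocyte sum was GYPC, which had a positive difference of 0.30, while the other 4 tested genes of that list had negative ones.

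The tested genes nearest to RRAD on its chromosome showed no such gap between the breeds. In the RefSeq gene order of assembly ARS-UCD2.0, the nearest tested protein-coding genes on one side were CDH16, a cadherin, and NAE1, a subunit of the NEDD8-activating enzyme. On the other side they were CIAO2B, of cytosolic iron-sulphur assembly, and CES2, a carboxylesterase. Their log2 differences were -0.19 (SE 0.19), -0.05 (SE 0.16), -0.05 (SE 0.12) and -0.40 (SE 0.19), with limma adjusted p of 0.677, 0.919, 0.886 and 0.429. The breeds overlapped at all 4. CDH16 read only 21.6 to 39.8 units, not far above the filter at 16.4, and NAE1 lay 4 genes away from RRAD.

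A search over 10827 tested probe sets with 1 gene symbol gave the genes whose pattern over the 6 animals was most like that of RRAD. Likeness was the root mean square difference between log2 values centred on each gene's own mean, so a value of 0 would be an identical pattern and the median over all was 0.65. ESPL1, which encodes the protease separase, came first at 0.19. Its signals were 55.0, 59.3 and 48.4 units in Japanese Black against 119, 156 and 201 in Holstein. S100A1, a small EF-hand protein that binds calcium and acts on the release channel and the pump, was next, also at 0.19. It read 176, 261 and 279 units against 729.6, 674 and 725. IGHM, an immunoglobulin heavy chain gene, followed at 0.21, the histone chaperone gene ANP32E at 0.22 and RUNDC3A at 0.24.

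All 5 were lower in every Japanese Black animal than in any Holstein animal, as the choice by likeness to RRAD requires of a close match. S100A1 had a further probe set, which read 160.2, 288 and 345 units against 819.5, 742 and 896. The other probe sets of ESPL1 and RUNDC3A did not show the pattern, with log2 differences of -0.0060 and -0.18 and overlapping breeds. That of ESPL1 read only 21.4 to 25.6 units, not far above the filter at 16.4, so little can be read from it. Apart from RRAD, the member closest to its pattern was set 2 of PLN at 0.55, which ranked 2167 in likeness. This was not a close match: 0.55 lay near the median of 0.65. Holstein 3 was the lowest of all animals at that set and the highest for RRAD.

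**Figure D2:**
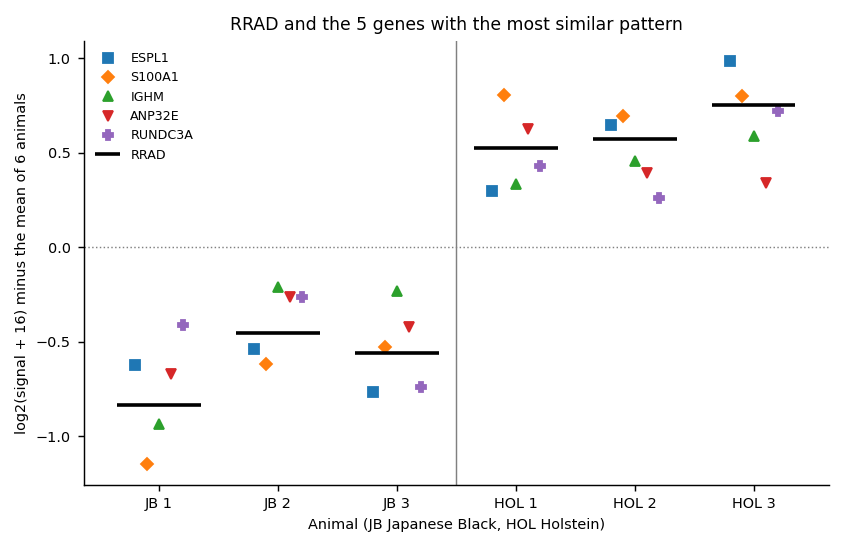
log2(signal + 16) minus the mean of the 6 animals (vertical axis) for each animal (horizontal axis); black bars are RRAD and symbols are the 5 genes with the smallest root mean square difference from it, 0.19 to 0.24. All 6 genes lie below 0 in the Japanese Black animals and above 0 in the Holstein animals.

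The channel that RRAD is known to act on was only partly readable. CACNA1S encodes the pore of the skeletal muscle calcium channel, which serves as the voltage sensor. Its only probe set read 7.52, 7.51 and 5.74 units in Japanese Black and 9.56, 6.68 and 5.57 in Holstein. These signals lay under the 16.4 units below which probe sets were left out, so no difference was tested and no level of the gene can be read from them.

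CACNB1 encodes the beta subunit of the same channel, which helps carry the pore to the tubule membrane. Its 3 probe sets did not agree. Set 1 read 151, 134 and 91.8 units in Japanese Black and 84.3, 63.9 and 78.1 in Holstein. The breeds did not overlap there, but Japanese Black 3 lay close to Holstein 1. The log2 difference was 0.61 (SE 0.20, 95% interval 0.15 to 1.08) with a limma adjusted p of 0.336. After quantile normalization the breeds overlapped at this probe set.

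Set 2 of CACNB1 read 501, 426 and 423 units in Japanese Black against 459, 418 and 609 in Holstein. Set 3 read 195, 291 and 358 against 250.4, 260.0 and 263. Both overlapped between the breeds, with log2 differences of -0.12 (SE 0.18, adjusted p 0.793) and 0.08 (SE 0.22, adjusted p 0.897) in the limma fit. Japanese Black 3 was lowest of its breed at sets 1 and 2 and highest at set 3, so the sets ordered the animals differently.

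The calcium pump of fast fibres, SERCA1, is encoded by ATP2A1. At set 1 it read 2459.6, 2614 and 2013 units in Japanese Black and 2133, 2590.2 and 2618 in Holstein. At set 2 it read 253, 349 and 208.5 against 256, 249 and 385. Within each breed the same animal was highest at both sets, Japanese Black 2 and Holstein 3. The breeds overlapped at both, with log2 differences of -0.05 (95% interval -0.39 to 0.29, adjusted p 0.899) and -0.13 (95% interval -0.67 to 0.41, adjusted p 0.834) in the limma fit. Either sign could result from leaving out 1 animal: the differences ran from -0.15 to 0.06 and from -0.32 to 0.06.

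ATP2A2 encodes SERCA2, the pump of slow fibres and heart, which in another splice form is made in most cell types. The animals of the 2 breeds overlapped at each of its 4 probe sets. Set 2 read 10321, 8209.9 and 11522 units in Japanese Black and 9007, 11119 and 9213 in Holstein. Set 3 read 8417, 6095 and 10279 against 6418, 7778 and 5794. The breeds overlapped at both, and Japanese Black 2 stood near the lower end each time.

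At the dimmer signals of set 1 the values were 355, 141 and 275 units in Japanese Black and 119, 195 and 106 in Holstein. At set 4 they were 210.4, 144 and 245 against 151, 213 and 103. Japanese Black 2 lay within the Holstein range at both of these dimmer sets, whereas at set 2 it lay below all Holstein animals. The log2 differences of sets 1 to 4 were 0.76 (SE 0.33), 0.03 (SE 0.14), 0.29 (SE 0.19) and 0.35 (SE 0.27), with limma adjusted p of 0.392, 0.9495, 0.536 and 0.594. All 4 were positive, and none passed; the widest interval, that of set 1, ran from 0.01 to 1.51. Leaving out 1 animal moved the differences of sets 1, 3 and 4 by over 1.5 times. Set 1 was 0.49 without Japanese Black 1. Set 3 came to 0.11 when Japanese Black 3 was left out and was 0.49 when Japanese Black 2 was. Set 4 was 0.20 without Japanese Black 3 and 0.11 without Holstein 3, and 0.55 without Japanese Black 2 and 0.58 without Holstein 2.

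The order of the animals recurred across the ATP2A2 sets. Japanese Black 2 was the lowest of its breed at 4 of 4 sets, and Holstein 2 the highest of its breed at 4 of 4. Japanese Black 3 was the highest of its breed at 3 and Japanese Black 1 at the other. Slow fibre markers had their lowest mean level in Japanese Black 2, at -0.29 on the log2 scale relative to the mean of all animals, against -0.01 to 0.11 in the rest. Most of this came from MYL3, the slow myosin light chain gene, which read 3003, 1172 and 2447 units in Japanese Black and 5589.9, 3917 and 5822 in Holstein. MYL2 and TNNC1 of the same list were higher in Japanese Black 2 than in any Holstein animal. Adipocyte markers, with 7 of 9 genes named and none at 0, were highest in Japanese Black 3 (1.31) and Holstein 2 (0.81) and lowest in Holstein 3 (-1.55). The adipocyte sums were 3896 to 15573 units in Japanese Black and 1979 to 12769 in Holstein. The part of fibre type and of fat cells in the order of ATP2A2 was not tested.

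SLN encodes sarcolipin, which uncouples calcium transport by the pump from its use of ATP. At its single probe set it read 12130.3, 12791 and 13052.5 units in Japanese Black and 12882, 11612 and 11297 in Holstein. The breeds overlapped, and the range across all 6 animals was narrow. The log2 difference was 0.09 (SE 0.09, 95% interval -0.12 to 0.30) with a limma adjusted p of 0.699.

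PLN encodes phospholamban, which lowers the calcium affinity of SERCA2 until it is phosphorylated. Set 1 read 2284, 2385 and 2369 units in Japanese Black and 2821, 2543 and 2174 in Holstein. Set 2 read 2503, 2626 and 2449 against 4109, 3052 and 2432. Set 3 read 1899, 2079 and 1971 against 2762, 2171 and 1817. At each of the 3 sets Holstein 1 and Holstein 2 lay above all Japanese Black animals and Holstein 3 below them all.

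The spread of PLN was therefore small within Japanese Black and wider within Holstein. The SD of the log2 values was 0.03, 0.05 and 0.06 in Japanese Black at sets 1 to 3 and 0.19, 0.38 and 0.30 in Holstein. This difference in spread was not tested. The log2 differences between breeds were -0.09 (SE 0.13), -0.31 (SE 0.18) and -0.16 (SE 0.17), with limma adjusted p of 0.788, 0.501 and 0.690. Without Holstein 1 they were -0.0034, -0.11 and -0.0035. Without Holstein 3 they were -0.19, -0.49 and -0.30, and the breeds then no longer overlapped at any of these sets.

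**Figure D3:**
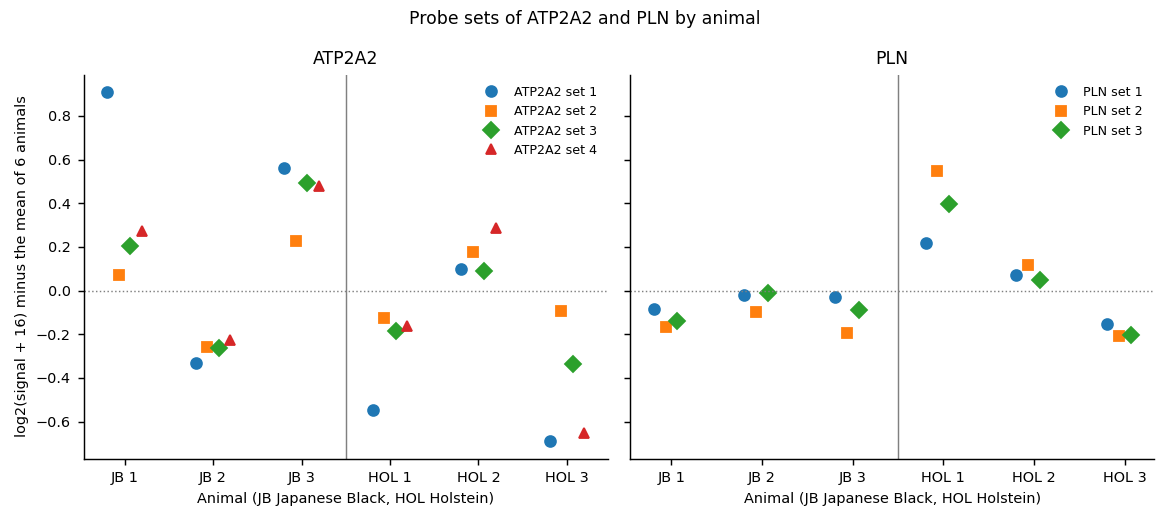
log2(signal + 16) minus the mean of the 6 animals (vertical axis, shared) for each animal (horizontal axis), with 1 symbol per probe set of ATP2A2 (left) and PLN (right). Japanese Black 2 is the lowest of its breed at all 4 ATP2A2 sets, and Holstein 1 is the highest and Holstein 3 the lowest of their breed at all 3 PLN sets.

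Across the 14 tested probe sets, 7 log2 differences were positive and 7 negative, with a median of -0.01 beside 0.01 over all 18012 tested. The breeds did not overlap at 2 of the 14, RRAD (lower in Japanese Black) and set 1 of CACNB1 (higher). Over all tested probe sets the breeds did not overlap for 8.84% in the first direction and 11.0% in the second, 19.8% together. Without RRAD, which was chosen for its difference, the count is 1 of 13. Apart from RRAD 0 of 13 passed the adjusted threshold in limma, with adjusted p between 0.336 and 0.9495. In limma 3 of the 14 had an unadjusted p under 0.05, against 12.6% of all tested, and RRAD was among them by its choice. The others were CACNB1 set 1 (limma p 0.0153) and ATP2A2 set 1 (limma p 0.0475). The 95% intervals of the 13 ran from -0.72 at the lowest to 1.51 at the highest, each bound belonging to another probe set (PLN set 2 and ATP2A2 set 1). Single intervals were narrower, the narrowest being that of SLN, from -0.12 to 0.30. The median within-breed SD of the members was 0.24 on the log2 scale, close to the 0.23 of all tested probe sets.

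**Figure D4:**
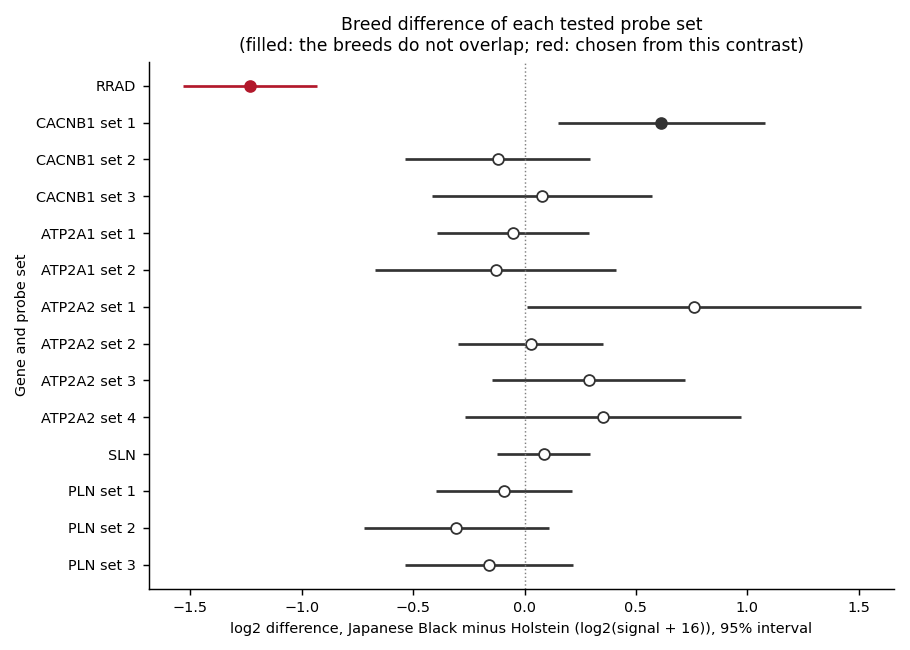
Difference in log2(signal + 16), as Japanese Black minus Holstein (horizontal axis), with its 95% interval for the 14 tested probe sets (vertical axis); filled points mark probe sets at which the breeds do not overlap. RRAD, in red because it was chosen from this contrast, lies at -1.23, and the other 13 points lie between -0.31 and 0.76.

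Other genes of calcium handling were taken from 7 lists by role. Of their 95 symbols 56 were named in the annotation and 49 tested, each at its brightest probe set. The Japanese Black mean was above the Holstein mean for 26 and below it for 23, and the median log2 difference was 0.02 beside -0.01 over 8050 genes. None passed the adjusted threshold in limma, where 0.0248% of all genes did. An unadjusted limma p under 0.05 was found for 9 of the 49, beside 12.6% of all 18012 tested probe sets. The breeds did not overlap for 6 genes in the direction of higher and 4 in the direction of lower Japanese Black levels, beside 10.2% and 8.96% of all genes, 19.2% together.

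Of the 3 relatives of RRAD in the RGK group 2 were named, GEM and REM1, and neither separated the breeds. REM2 was not named in the annotation. GEM read 52.0, 45.2 and 216 units in Japanese Black and 108, 154 and 89.3 in Holstein, so 1 Japanese Black animal exceeded all others. Its log2 difference was -0.40 (SE 0.46) with a limma adjusted p of 0.721, and it was -1.02 without Japanese Black 3. REM1 read 23.4 to 33.2 and 26.7 to 35.6 units, not far above the filter at 16.4, with a difference of -0.13 (SE 0.16, limma adjusted p 0.753).

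Of the other channel and triad proteins 11 were tested, of which 3 had positive and 8 negative differences, around a median of -0.08, and 0 passed. CACNB3, a further beta subunit that RGK proteins can bind, read 76.2, 102 and 92.5 units in Japanese Black and 108, 126 and 144 in Holstein. The breeds did not overlap, by a small margin, and the log2 difference was -0.42 (SE 0.18, limma adjusted p 0.392). TMEM38B, a potassium channel of the store membrane, had a difference of 0.53 (SE 0.25, adjusted p 0.410) at its brighter probe set and 0.12 (SE 0.17) at the other.

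Release channels and their partners had 5 genes higher and 4 lower among 9 tested, with a median of 0.09 and 0 passing. CALM3, one of the genes for the calcium sensor calmodulin, read 3319, 3237 and 3357 units in Japanese Black against 2848, 2777 and 2568 in Holstein. Its difference of 0.27 (SE 0.11, adjusted p 0.383) was joined by 0.36 (SE 0.14, adjusted p 0.374) at its other probe set, both from limma, and the breeds did not overlap at either. SRPK3, counted among the 4 lower genes, is a protein kinase of muscle and not a known partner of these channels. Its difference was -0.41 (SE 0.19, adjusted p 0.401).

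Among the other pumps and exchangers 2 genes were tested. ATP2B1, a calcium pump of the cell surface, had a log2 difference of 0.21 (SE 0.28, limma adjusted p 0.769) at its brightest probe set and 0.42 and -0.57 at the other sets, so its sets disagreed in direction. The sodium-calcium exchanger gene SLC8A1 had a difference of -0.01 (SE 0.18, adjusted p 0.994), whose sign turned under quantile normalization and median centring.

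Of 5 other calcium buffers 3 were higher and 2 lower, with a median of 0.01 and 0 passing. S100A1, described above, had limma adjusted p of 0.115 and 0.0825 at its 2 probe sets, with log2 differences of -1.63 (SE 0.26) and -1.53 (SE 0.19). The second of these, which is the probe set found by its likeness to RRAD and not the brighter one, passed with a limma adjusted p of 0.0285 after quantile normalization and 0.0425 with array weights. Calreticulin, a calcium-binding chaperone encoded by CALR, had a difference of -0.16 (SE 0.17, adjusted p 0.710).

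Store-operated entry and mitochondrial uptake had 5 genes higher and 2 lower, with a median of 0.17 and 0 of 7 passing. MCUR1, a regulator of the mitochondrial calcium uniporter, read 205, 233 and 264 units in Japanese Black and 178, 150.4 and 122 in Holstein. The breeds did not overlap, with a log2 difference of 0.60 (SE 0.19, limma adjusted p 0.323). MICU2, a gatekeeper of the same uniporter, had a difference of 0.32 (SE 0.16, adjusted p 0.448), also without overlap.

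Calcineurin and calmodulin kinase genes, which pass calcium signals on to transcription, had 9 genes higher and 4 lower among 13 tested, with a median of 0.24 and 0 passing. RCAN1, an inhibitor of calcineurin that calcineurin signalling itself induces, read 2063, 4993 and 3099 units in Japanese Black and 7440.0, 5781 and 7045 in Holstein. All Holstein animals lay above all Japanese Black animals, which differed widely among themselves. The log2 difference was -1.08 (SE 0.28, 95% interval -1.70 to -0.45) with a limma adjusted p of 0.295, and it ranged from -1.40 to -0.77 when each animal was left out. RCAN2, of the same family, went the other way, with 117, 137 and 132 units against 33.4, 84.6 and 100.4. Its difference was 0.79 (SE 0.30, adjusted p 0.361), the breeds did not overlap, and it was 0.42 without Holstein 1.

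**Figure D5:**
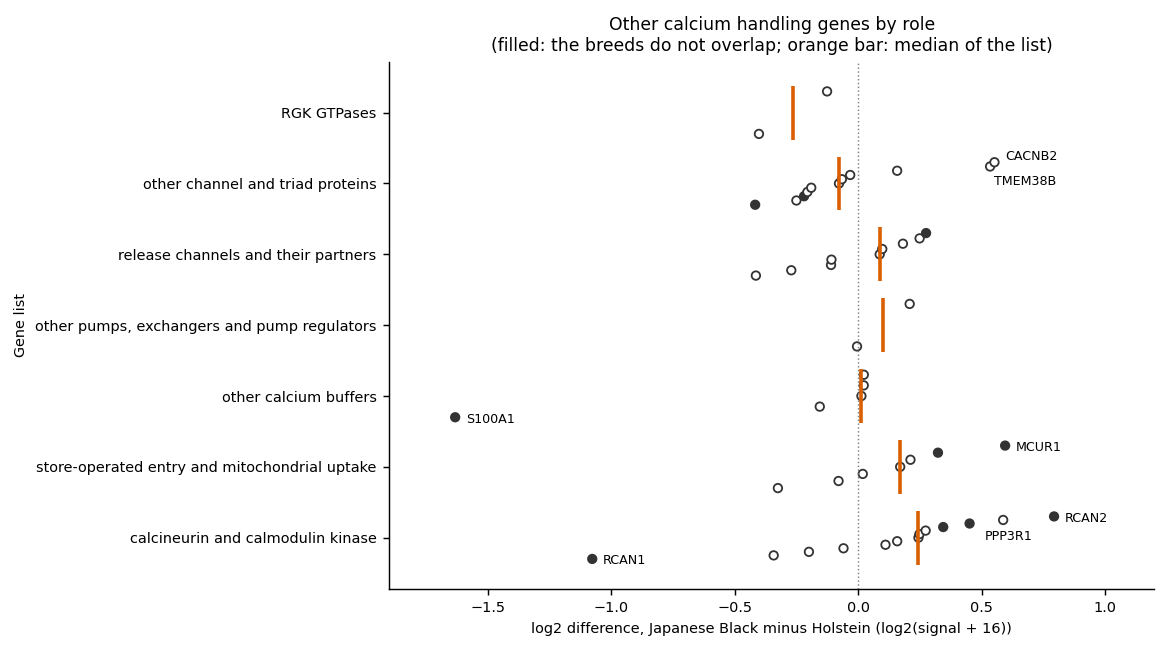
Difference in log2(signal + 16), as Japanese Black minus Holstein (horizontal axis), for 49 calcium handling genes by role (vertical axis), 1 point per gene at its brightest probe set; filled points mark genes whose breeds do not overlap and orange bars are list medians. Points beyond 0.5 are labelled, S100A1 at -1.63 and RCAN1 at -1.08 being the lowest and RCAN2 at 0.79 the highest, and 0 of the 49 passed the adjusted threshold.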

How the data were processed

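Per the labels' protocols, RNA extracts were cleared of DNA with DNase, and biotin-marked cRNA was prepared for Affymetrix arrays. The authors' values are linear intensities, deposited as 1 number for each probe set in each animal. They were made with GCOS 1.1.1 and Affymetrix Expression Console 1.1, per the submitters' processing notes. How probes were summarised and scaled is not given in the sources used here. Control probe sets, 112 in number, were dropped. An offset of 16 was added before log2, and the dimmest 25% of probe sets by mean log2 were not tested, leaving 18012.

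The breeds were compared without pairing, two-sided, in limma 3.58.1 under R 4.3.3 (eBayes with trend). P-values were adjusted by Benjamini-Hochberg across the 18012, and calls were made at 0.05. The fit was run on simulated data with independent noise for each probe set, which checks the code and not the calls made here. A paired t-test stands in the design text, but no label pairs the animals, so all 6 matchings were tried. Other alternatives were the offset, the filter, quantile normalization, median centring, no trend, array weights and leaving out each animal. The labels give no batch.

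Symbols were read from the platform annotation, and the 7 named members matched RefSeq by gene identifier. Members and lists were chosen with earlier results of these data known. Named were all members, the RGK genes, 2 genes per role list with the smallest p, the 5 genes most like RRAD and, by position, neighbours of RRAD. Figures used matplotlib 3.10.9 in Python 3.11.15.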

Additional observations from a re-analysis of the deposited data

How the results depend on the processing

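The RRAD difference moved by less than its within-breed SD under every alternative run, between -1.26 and -1.19 for the settings that keep all 6 animals. Several of these could not move it: the filter, the trend and the pairing leave a difference of means at -1.23. RRAD was chosen by its call, so nothing is read from whether that call is kept: the number of member probe sets that passed was 1, and 0 with an offset of 1, with the dimmest 50% left out, with eBayes without trend and in the paired t-test under all 6 matchings, and 0 to 1 when an animal was left out. Over all probe sets the count that passed was 3, against 0 with an offset of 1 or the dimmest 50% left out, 10 with array weights, 0 to 15 when an animal was left out, and 1 or 0 in the paired t-test (1 in 1 matching), which left few degrees of freedom and no known pairs, so its counts say nothing of stability. Without Holstein 3 it was 1, without Holstein 2 it was 15, and without Japanese Black 1, 2 or 3 it was 0. The methods' t-test gave 1268 to 1692 probe sets with an unadjusted p under 0.05 (1305, 1458, 1268, 1336, 1692 and 1571 by matching), against 2267 in limma, 1350.0 to 2632 of them when an animal was left out. Probe sets of members whose breeds do not overlap numbered 2, then 1 after quantile normalization and 2 to 5 when an animal was left out, where 4 came without Japanese Black 2 and 5 without Holstein 3. The count of pathway genes that passed, each at its brightest probe set, was 0 in all settings run; the dimmer S100A1 set passed after quantile normalization (limma adjusted p 0.0285) and with array weights (0.0425).

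Differences near 0 changed sign. CACNB1 set 3 was -0.0090 after quantile normalization, SLC8A1 0.021 and, after median centring, 0.011. With array weights ATP2A1 was 0.038 and 0.070 at sets 1 and 2, and ATP2A2 set 2 was -0.060. With an animal left out, differences ran from -0.081 to 0.16 for ATP2A2 set 2, -0.15 to 0.057 and -0.32 to 0.063 for ATP2A1, -0.23 to 0.033 for CACNB1 set 2, -0.11 to 0.31 for CACNB1 set 3, -0.12 to 0.10 for SLC8A1, -0.15 to 0.041 for NAE1 and -0.10 to 0.46 for ATP2B1. An offset of 64 lowered the size of the differences of 4 genes most like RRAD, to -0.90 for ESPL1, -0.60 for IGHM, -0.62 for ANP32E and -0.63 for RUNDC3A. The cause of the other changes was not tested.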
